A study of Mus musculus with 17 samples.

Results

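The 10 genes described here, Cst7, Clec7a, Itgax, Axl, Cd9, Spp1, Gpnmb, Lgals3, Igf1 and Ccl6, form a core of the program that microglia take on around amyloid plaques. They were taken by symbol, and all 10 were found among the 42687 Ensembl genes of the count table and passed the filter on low counts. RNA had been sequenced from microvessels of mouse cerebral cortex, aged 10 to 11 months, in 17 libraries. The mice were wild type (WT) or APP/PS1, a transgenic amyloid model of Alzheimer's disease, which the sample labels shorten to APP. All mice had received intraperitoneal peptide at 10 mg/kg, once per 2 days over 2 weeks: either gp91-ds-tat, an inhibitor of the superoxide-producing oxidase NOX2, or sgp91-ds-tat as control. The labels NOX2 and SC were read as inhibitor and control, which gave WT_SC (5 libraries), WT_NOX2 (5), APP_SC (2) and APP_NOX2 (5), so no group was free of injected peptide. The promoter of the transgenes, the sex of the mice and the number of animals behind a library were not given in the sources used here, so p-values measure the spread between libraries.

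Microglia are the resident macrophages of the brain. Around plaques they lower part of their resting gene program and raise a set of lipid-handling, lysosomal, phagocytic and secreted products, a shift that depends in large part on the receptor Trem2 and its adaptor Tyrobp. Cst7 encodes cystatin F, an inhibitor of lysosomal cysteine cathepsins; Clec7a encodes Dectin-1, a receptor for beta-glucans; Itgax encodes the integrin chain CD11c. Axl is a receptor tyrosine kinase for Gas6, Cd9 a tetraspanin, Gpnmb a transmembrane glycoprotein of phagocytes, and Lgals3 the sugar-binding galectin-3. Spp1 (osteopontin), Igf1 and the chemokine Ccl6 are secreted. Several of the 10 are also made outside microglia: Cd9 and Axl by glia and vessel cells, Spp1 by perivascular and mesenchymal cells, and Igf1 by neurons and mesenchymal cells.

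Total counts were between 7316503 and 17862965 per library. Levels are in CPM, the count of a gene scaled for library depth with TMM-adjusted library sizes. A count of 3, chosen as the floor although lower counts occur, equals 0.174 to 0.390 CPM. Prnp, parts of which are built into common APP/PS1 constructs, was at 682 to 1418 CPM in the 7 APP/PS1 libraries and at 301 to 555 CPM in the 10 WT libraries, and no library of one genotype fell in the range of the other. App was at 1897 to 3334 CPM in APP/PS1 and 1262 to 2230 CPM in WT. The labels name endothelium, pericytes and astrocyte endfeet, and the summed levels of 8 endothelial markers (2147 to 4071 CPM), 7 pericyte and smooth muscle markers (1051 to 1813 CPM) and 6 astrocyte markers (2952 to 5092 CPM) were well above the floor in every library. So were 6 neuron markers (2919 to 4782 CPM) and 10 microglia and macrophage markers (161 to 408 CPM), which the labels do not name.

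Of the 10 genes, 5 were higher in APP/PS1 over both peptides, and the promoters of these 5 are shown because they share that call. The windows run from 250 bases before to 50 after the annotated start site, are read 5′ to 3′ on the gene's own strand, and come from RefSeq on GRCm38.p6, in which all 10 genes had an entry. Their start sites lie on chromosomes 2, 6, 7, 6 and 11; for Clec7a, with 2 entries, the first by position is shown. Capitals mark matches to TGANTCA, a loose form of the AP-1 motif that allows any middle base. It reads the same on both strands apart from that base.

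Cst7 (chr2:150570165-150570464, plus strand): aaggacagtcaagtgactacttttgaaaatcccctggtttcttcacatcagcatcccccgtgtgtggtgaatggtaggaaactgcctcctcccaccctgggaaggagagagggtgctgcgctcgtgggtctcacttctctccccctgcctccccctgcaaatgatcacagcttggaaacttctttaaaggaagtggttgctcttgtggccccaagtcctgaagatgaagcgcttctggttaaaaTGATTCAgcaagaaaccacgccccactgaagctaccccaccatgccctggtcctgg

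Clec7a (chr6:129472730-129473029, minus strand): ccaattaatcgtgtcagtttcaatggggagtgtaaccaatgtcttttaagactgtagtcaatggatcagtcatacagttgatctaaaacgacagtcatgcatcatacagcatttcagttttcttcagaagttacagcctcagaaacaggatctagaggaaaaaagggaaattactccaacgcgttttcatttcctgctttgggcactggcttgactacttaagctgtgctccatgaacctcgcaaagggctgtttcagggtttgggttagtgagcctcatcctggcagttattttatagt

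Itgax (chr7:128129300-128129599, plus strand): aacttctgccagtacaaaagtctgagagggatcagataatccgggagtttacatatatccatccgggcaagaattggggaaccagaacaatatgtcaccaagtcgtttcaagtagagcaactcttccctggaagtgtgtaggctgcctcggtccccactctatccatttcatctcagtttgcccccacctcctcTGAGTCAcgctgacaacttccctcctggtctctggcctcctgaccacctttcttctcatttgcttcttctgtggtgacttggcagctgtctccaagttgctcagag

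Gpnmb (chr6:49036268-49036567, plus strand): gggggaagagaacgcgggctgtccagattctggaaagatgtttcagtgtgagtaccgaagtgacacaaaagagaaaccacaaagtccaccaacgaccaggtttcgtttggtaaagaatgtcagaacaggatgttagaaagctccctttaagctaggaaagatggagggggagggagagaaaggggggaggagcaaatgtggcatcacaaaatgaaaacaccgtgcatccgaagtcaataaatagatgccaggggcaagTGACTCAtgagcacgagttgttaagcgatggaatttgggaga

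Ccl6 (chr11:83593038-83593337, minus strand): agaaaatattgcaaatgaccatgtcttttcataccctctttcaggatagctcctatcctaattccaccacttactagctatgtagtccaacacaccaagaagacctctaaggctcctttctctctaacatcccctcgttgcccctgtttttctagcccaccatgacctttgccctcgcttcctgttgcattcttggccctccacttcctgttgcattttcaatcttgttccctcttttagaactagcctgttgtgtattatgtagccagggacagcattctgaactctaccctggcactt

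The loose TGANTCA letters were found in the promoters of Cst7, Itgax, Gpnmb and also Igf1, against 7.81% of all 32851 promoter windows of this length. In Cst7 they read TGATTCA (first base at -6 from the start site) and in Itgax TGAGTCA (at -56). In Gpnmb they read TGACTCA (at 8) and in Igf1 TGAATCA. The PU.1 letters GAGGAAGT, searched on both strands, were found in 1 of the 10 genes, Spp1, against 3.20% of all windows. The E-box CACGTG was found in none of the 10, against 7.15% of all windows. The motifs did not overlap in these windows, and a match describes letters, not a bound site.

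Before genotypes are compared, the genes differ widely in abundance. Scaled to the length of their annotated exons, the WT levels were highest for Cd9 at 26.3 CPM per kilobase, Spp1 at 18.4 and Axl at 12.7, and the other 7 genes were between 0.155 (Itgax) and 1.87 (Igf1). In APP/PS1 the same 3 genes led, at 31.6 (Cd9), 16.7 (Spp1) and 14.4 (Axl) CPM per kilobase. Cst7 went from number 9 of the 10 in WT, at 0.179 CPM per kilobase, to number 4 in APP/PS1, at 8.24.

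The genotype comparison asks which of these genes differ in microvessels of APP/PS1 mice. Cst7, Clec7a, Itgax, Ccl6 and Gpnmb rose, 0 of the 10 fell, and Axl, Cd9, Spp1, Lgals3 and Igf1 did not pass. These 5 of 10 calls stand beside 0.56% of the 18753 genes tested that were called higher (edgeR quasi-likelihood test, Benjamini-Hochberg adjusted p under 0.05). The 10 genes were chosen with earlier results of these data known, so comparisons of them with all genes are a description and not an independent test. The median log2 change was 0.51 over the 10 genes and 0.0017 over all genes tested. An unadjusted p under 0.05 was found for 7 of the 10 genes and for 1197 of the 18753 genes tested. In 3 of the 10 genes, Cst7, Clec7a and Itgax, every APP/PS1 library was above every WT library, which held for 0.267% of the genes tested. Of these 3, Cst7 passed the filter on low counts only through APP/PS1, with 68 to 138 counts there and 0 to 6 in WT. Its call and its separation are therefore not independent of that filter.

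**Figure D1:**
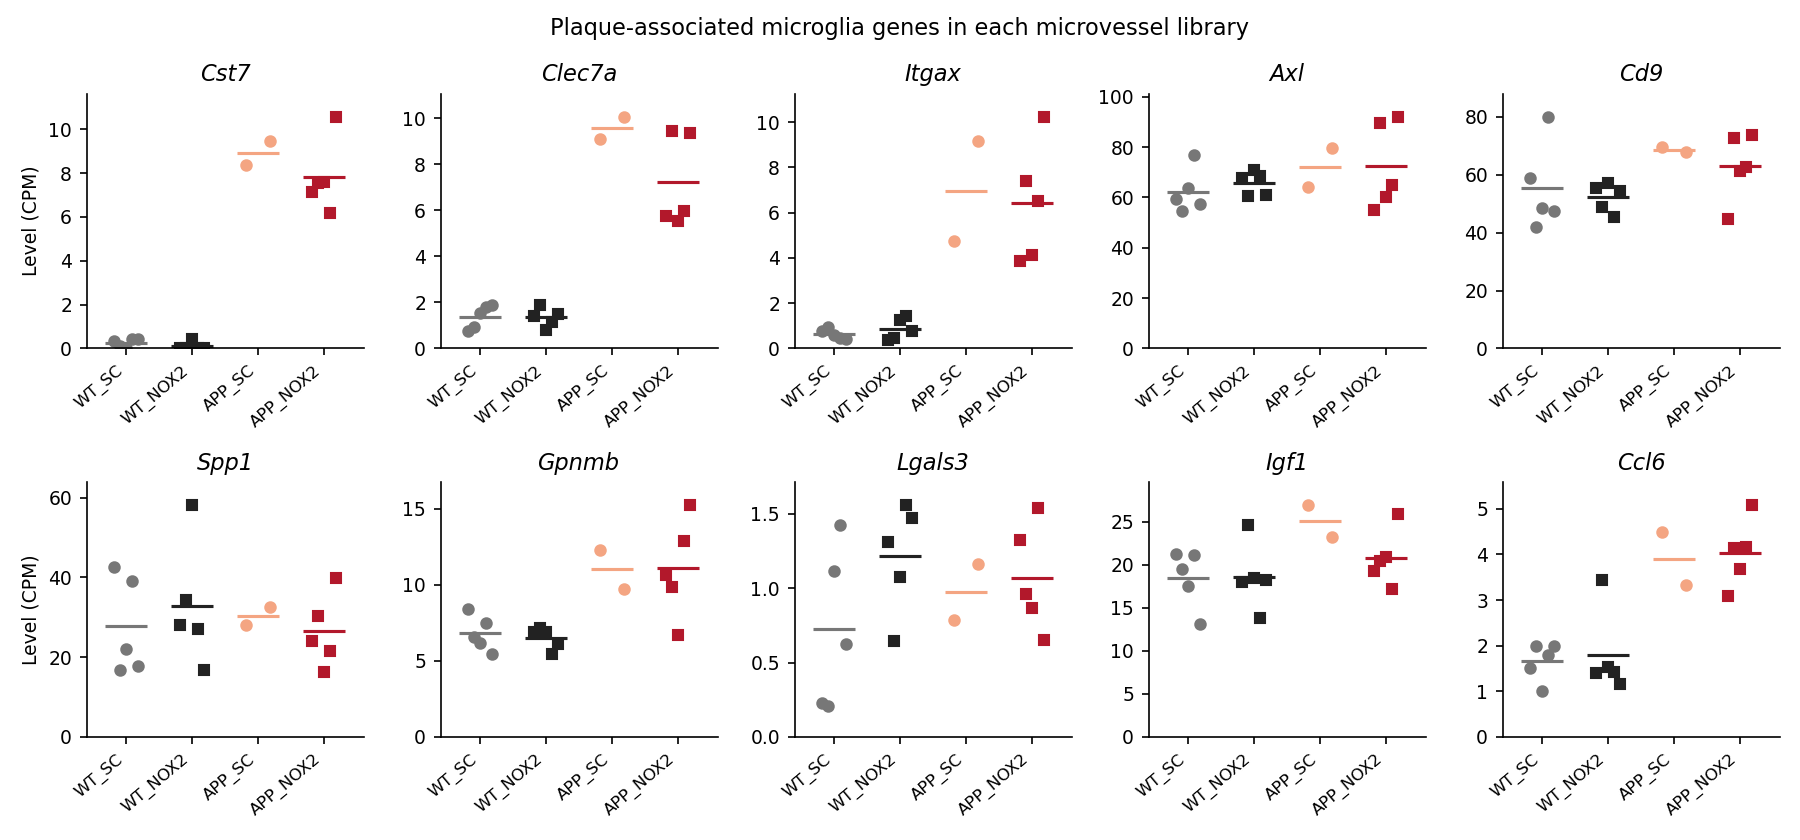
Level of each gene in CPM (vertical axis, from 0, scaled per gene) in each library, by group; each point is 1 library and each line the group mean. Cst7, Clec7a and Itgax sit apart between the genotypes, Ccl6 and Gpnmb overlap by single libraries, and the other 5 genes overlap widely.

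Among the genes of the lysosome and cell surface, Cst7 was close to absent in WT. In WT_SC it was at 0.347, 0.105, 0, 0.447 and 0.418 CPM in replicates 1 to 5, and in WT_NOX2 at 0.449 CPM in replicate 3 and at 0 in the other 4. In APP_SC it was at 8.37 and 9.48 CPM, and in APP_NOX2 at 7.14, 7.53, 7.60, 6.17 and 10.6 CPM. The lowest APP/PS1 value, 6.17 CPM, was far above the highest WT value, 0.449 CPM. Pooled over libraries, 734 counts in APP/PS1 and 21 in WT gave a ratio of 44.6, with an exact 95% interval of 29.0 to 72.5 that covers counting error only. The log2 change was 5.51 ± 0.36 (SE, edgeR adjusted p = 1.98e-08), a fitted value that is imprecise in size because 5 of 10 WT libraries had no count. Each SE of an edgeR change is the absolute log2 change over the square root of the F statistic. Such an SE is approximate, above all where counts are low.

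Clec7a, the Dectin-1 receptor, was detected in every library. It was at 0.752, 0.943, 1.52, 1.79 and 1.88 CPM in WT_SC and 1.40, 1.88, 0.808, 1.17 and 1.48 CPM in WT_NOX2. In APP_SC it was at 9.10 and 10.1 CPM, and in APP_NOX2 at 5.75, 9.45, 5.54, 5.99 and 9.34 CPM. Within APP_NOX2 the libraries fell into a lower trio and a higher pair, replicates 2 and 5, which reached the level of APP_SC. The log2 change was 2.56 ± 0.20 (SE, edgeR adjusted p = 2.30e-07). The annotation GENCODE M21 lists this gene as a polymorphic pseudogene.

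Itgax, which encodes CD11c, was at 0.418 to 0.943 CPM in WT_SC and at 0.374 to 1.43 CPM in WT_NOX2. In APP_SC it was at 4.73 and 9.15 CPM, and in APP_NOX2 at 3.85, 7.38, 4.13, 6.53 and 10.2 CPM. All APP/PS1 libraries were higher, and they spread from 3.85 to 10.2 CPM among themselves. The log2 change was 3.14 ± 0.27 (SE, edgeR adjusted p = 1.15e-06). Itgax is also a dendritic cell gene. Of 7 dendritic cell markers 3 passed the filter and 0 of these were called, Xcr1, Clec9a and Ccr7 were under 3 counts on average, and the summed level was 57.3 to 73.0 CPM in WT and 57.5 to 69.8 CPM in APP/PS1. Most of that sum was Zbtb46 (mean 37.8 CPM in WT, 37.3 in APP/PS1) and Flt3 (22.9 and 20.3 CPM), so it says little of the low markers. Whether dendritic cells contributed to the Itgax level was not tested.

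Gpnmb rose by a smaller step. It was at 8.39, 6.60, 6.20, 7.50 and 5.44 CPM in WT_SC and 6.92, 7.20, 6.91, 5.46 and 6.14 CPM in WT_NOX2. In APP_SC it was at 12.3 and 9.73 CPM, and in APP_NOX2 at 10.7, 9.89, 6.73, 12.9 and 15.2 CPM. Only replicate 3 of APP_NOX2 lay within the WT range. The log2 change was 0.73 ± 0.14 (SE, edgeR adjusted p = 0.00935), and leaving out any single library kept it under the threshold (adjusted p up to 0.0486). Axl was at 54.5 to 76.7 CPM in WT and 55.1 to 92.1 CPM in APP/PS1, and the change of 0.16 ± 0.10 (log2, SE) did not pass (edgeR adjusted p = 0.889). Cd9 was at 41.8 to 80.0 CPM in WT and 44.7 to 73.6 CPM in APP/PS1, and the change of 0.28 ± 0.12 (log2, SE) did not pass either (edgeR adjusted p = 0.669). The highest Axl and Cd9 values in APP_NOX2 were in replicates 2 and 5, the pair that was also high for Clec7a. Cd9 shares 218 exon bases with Gm26728 on the opposite strand, which had 3 to 21 counts per library against 350 or more for Cd9.

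Lgals3 was low throughout, with 2 to 21 counts per library. Its level was 0.210 to 1.56 CPM in WT and 0.656 to 1.54 CPM in APP/PS1, and the log2 change was 0.06 ± 0.33 (SE, edgeR adjusted p = 0.999). The standard error of 0.33 stands against 0.14 for Gpnmb, so the Lgals3 change was estimated less precisely.

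Of the secreted products, the chemokine Ccl6 rose. It was at 1.504, 1.99, 1.02, 1.79 and 1.99 CPM in WT_SC and 1.40, 3.44, 1.53, 1.43 and 1.17 CPM in WT_NOX2. In APP_SC it was at 4.49 and 3.33 CPM, and in APP_NOX2 at 3.10, 4.13, 3.69, 4.17 and 5.08 CPM. A single WT library, replicate 2 of WT_NOX2, reached into the APP/PS1 range. The log2 change was 1.17 ± 0.20 (SE, edgeR adjusted p = 0.00490), and 1.41 without that library. The same library had the highest summed level of 9 neutrophil markers among the WT libraries, 28.1 CPM against 9.36 to 16.3 CPM in the other 9, and 22.5 to 33.3 CPM were found in APP/PS1. Of the 6 neutrophil markers tested, Csf3r alone was called (log2 change 1.04, edgeR adjusted p = 4.27e-05); microglia express it too, and Ly6g and Camp, which define neutrophils, were under 3 counts on average. Csf3r made up most of the sum, at 21.1 to 28.2 CPM in APP/PS1 and 8.19 to 16.7 CPM in WT. The other 8 neutrophil markers together averaged 3.19 ± 2.73 CPM over the 7 APP/PS1 libraries against 3.28 ± 3.08 CPM over the 10 WT libraries (mean ± SD), and were highest in WT_NOX2 replicate 2, at 11.4 CPM.

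Spp1 and Igf1 did not pass. Spp1 ranged widely within both genotypes, from 16.9 to 58.1 CPM in WT and from 16.4 to 39.7 CPM in APP/PS1, and its log2 change was -0.15 ± 0.24 (SE, edgeR adjusted p = 0.992). The highest of all 17 values was in replicate 3 of WT_NOX2. Igf1 was at 13.1 to 24.6 CPM in WT and 17.1 to 26.9 CPM in APP/PS1, a change of 0.26 ± 0.12 (log2, SE; edgeR adjusted p = 0.769). Cd9 and Igf1 had unadjusted p-values of 0.0276 and 0.0458, so their small positive differences do not stand after adjustment over all genes.

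**Figure D2:**
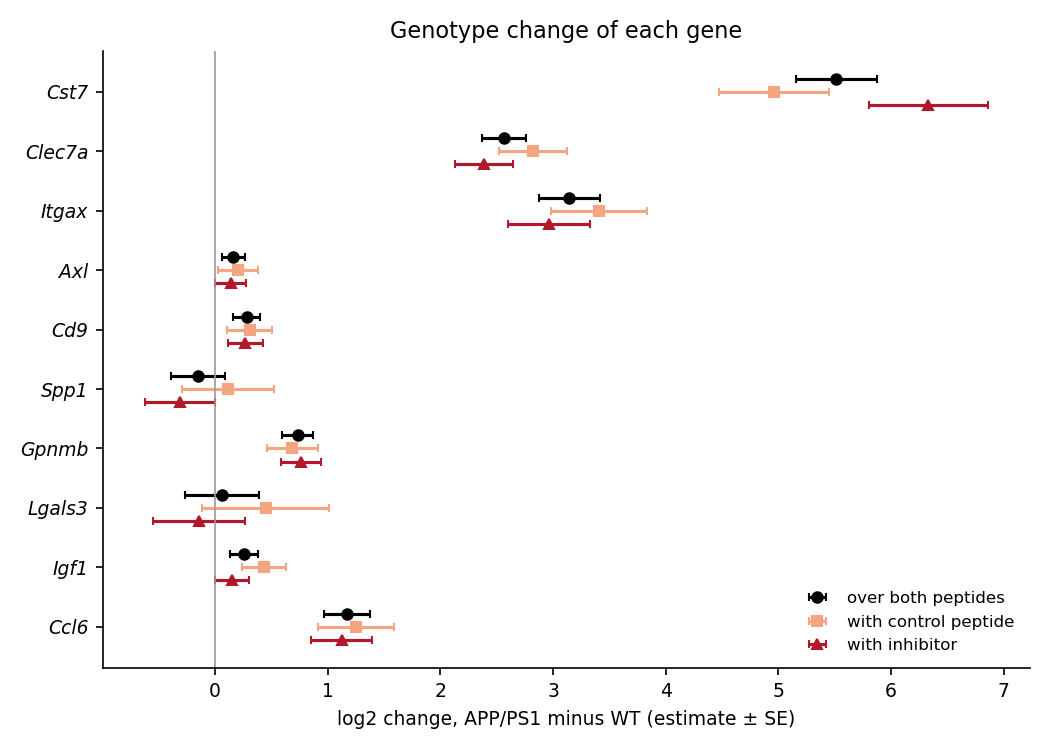
Log2 change between genotypes (horizontal axis, APP/PS1 minus WT, estimate with SE) for each gene over both peptides, with control peptide and with inhibitor. The 5 called genes lie between 0.73 (Gpnmb) and 5.51 (Cst7) over both peptides, and the estimates with either peptide fall near each other for most genes.

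With control peptide alone, 3 of the 10 genes were called higher in APP/PS1, against 0.0533% of genes tested, and these were Cst7, Clec7a and Itgax. Their log2 changes were 4.96 ± 0.49, 2.82 ± 0.30 and 3.41 ± 0.43 (SE), with edgeR adjusted p-values of 5.02e-05, 0.000123 and 0.000798. Only 2 APP/PS1 libraries enter here, and without APP_SC replicate 2 Itgax no longer passed (log2 change 2.87, edgeR adjusted p = 0.0895). With inhibitor, 3 of the 10 were called higher, against 0.176% of genes tested, and again these were Cst7 (6.33 ± 0.53), Clec7a (2.39 ± 0.26) and Itgax (2.96 ± 0.36). The edgeR adjusted p-values were 3.21e-06, 0.000144 and 0.000403. The size for Cst7 is loosely fixed: without WT_NOX2 replicate 3 the remaining WT_NOX2 libraries are all at 0 and the fitted change becomes 9.57. Gpnmb and Ccl6 had changes of 0.76 and 1.12 with inhibitor that did not pass in edgeR (adjusted p = 0.173 and 0.181) and passed with DESeq2's Wald test (adjusted p = 0.0265 and 0.0303). Ccl6 also passed in edgeR without WT_NOX2 replicate 2 (adjusted p = 0.00420), and Gpnmb without APP_NOX2 replicate 3 (adjusted p = 0.0204). Whether the genotype change differs with peptide is the interaction given further on.

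Other genes of the same program were examined in a list of 26, of which 25 were tested. For genotype over both peptides 5 rose and 0 fell, with a median log2 change of 0.18. The receptor Trem2 (1.37) and its adaptor Tyrobp (1.22) rose, with edgeR adjusted p-values of 3.79e-06 and 0.00161. So did the chemokine Ccl3 (2.36), the lysosomal glycoprotein Cd68 (0.95) and the lipase Lpl (0.56), with edgeR adjusted p-values of 0.00132, 0.00186 and 0.00554. The cathepsins of the list did not pass; of those with the smallest p, named after their values were seen, the log2 changes were 0.47 for Ctsz (edgeR adjusted p = 0.200) and 0.41 for Ctsd (adjusted p = 0.415). Ccl4 was under 3 counts on average and was not tested.

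Microglial genes outside the program were higher as well. Of 13 homeostatic microglia genes 5 rose and 0 fell, with a median log2 change of 0.66, among them the lectin Siglech (0.72), the fractalkine receptor Cx3cr1 (0.78), the Fc receptor-like Fcrls (1.02) and the purinergic receptor P2ry12 (0.66). Their edgeR adjusted p-values were 0.000676, 0.00262, 0.0193 and 0.0365 in that order. Of 10 markers of microglia and macrophages in any state 8 rose, with a median of 0.74, and the smallest p-values among them were those of the tetraspanin Cd53 (0.90), Ly86 (1.08) and the lysosomal Laptm5 (0.71). The summed level of these 10 markers was 161 to 234 CPM in WT and 233 to 408 CPM in APP/PS1, and the highest values were again in APP_NOX2 replicates 2 and 5, at 377 and 408 CPM. In bulk libraries, more cells of a type and more RNA per cell cannot be told apart. Of 8 perivascular macrophage markers 0 were called, with a median of 0.02 and 1 unadjusted p under 0.05, for Ms4a7 (0.57, edgeR adjusted p = 0.502).

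**Figure D3:**
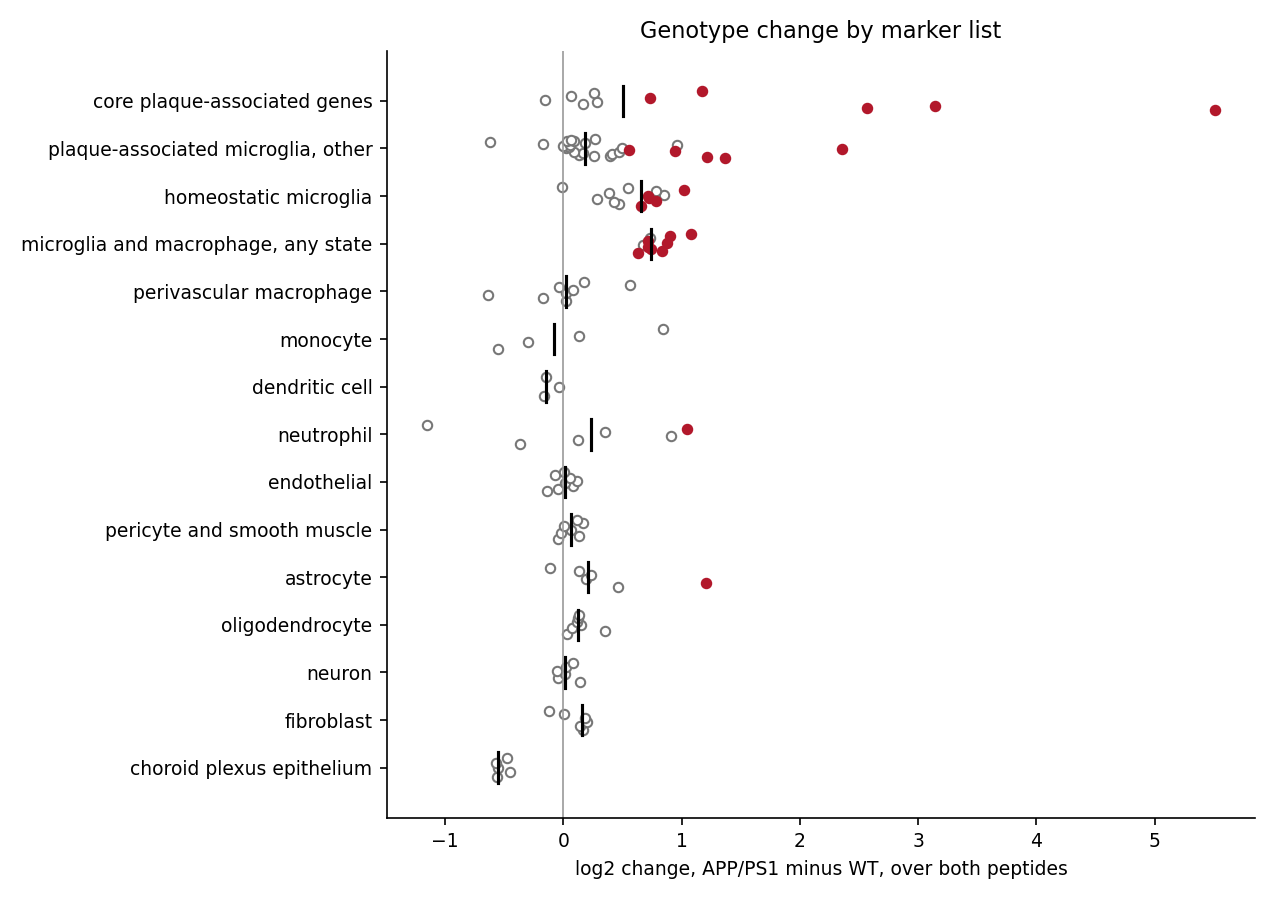
Log2 change between genotypes over both peptides (horizontal axis) of each tested gene in each list; filled points passed at an adjusted p under 0.05, open points did not, and bars are medians. The medians of the microglial lists lie at 0.18 to 0.74, and those of the perivascular macrophage and endothelial lists at 0.02 and 0.01.

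Markers of other cell types gave few calls. Endothelial (8 tested), pericyte and smooth muscle (7), oligodendrocyte (7), neuron (6), fibroblast (6), choroid plexus (5) and monocyte (4) markers gave 0 calls each, with 1 unadjusted p under 0.05 among them. The 5 choroid plexus genes were all lower in APP/PS1, with a median log2 change of -0.56 and none with an unadjusted p under 0.05. Their summed level varied widely, from 29.4 to 8097 CPM in WT and from 196 to 4722 CPM in APP/PS1, so the genotypes overlapped. Of 6 astrocyte markers Gfap, the intermediate filament of reactive astrocytes, rose by a log2 change of 1.20 (edgeR adjusted p = 0.000125).

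The levels of the 10 genes were then set against the 10 microglia and macrophage markers, a scale chosen after the data were seen. Per 100 CPM of summed markers, Cst7 was at 1.996 to 3.07 CPM in APP/PS1 and 0 to 0.259 in WT, Clec7a at 2.23 to 2.95 and 0.322 to 1.17, and Itgax at 1.53 to 2.55 and 0.169 to 0.814. These 3 genes thus kept their separation. Gpnmb did not stand apart on this scale, at 3.62 ± 0.96 (SD, n = 7) in APP/PS1 and 3.52 ± 0.30 (SD, n = 10) in WT. For Axl and Cd9 every APP/PS1 library was below every WT library. Axl was at 20.8 to 25.02 against 25.4 to 39.01, and Cd9 at 18.1 to 24.7 against 24.8 to 37.9. A ratio of this kind falls for any gene that rises less than the markers, and the values describe unequal change only. The share of all genes that separate on this scale, in either direction, was not counted.

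A further edgeR fit took the mean log2 level of these markers as a covariate. It called 765 of the 18753 genes tested in either direction, against 110 without the covariate. Cst7 (4.95 ± 0.63), Clec7a (1.92 ± 0.36) and Itgax (2.32 ± 0.50) passed, with adjusted p-values of 0.000841, 0.00957 and 0.0188. Gpnmb (0.27, adjusted p = 0.534) and Ccl6 (0.67, adjusted p = 0.304) did not. Spp1 passed in the lower direction, at -1.57 ± 0.31 (log2, SE; edgeR adjusted p = 0.0132). The marker score was -0.61 to -0.02 in WT and 0.12 to 0.78 in APP/PS1, so the genotypes do not overlap in score, and genotype and marker level cannot be told apart in this fit. The summed marker levels do meet in 1 pair of libraries: at 234 CPM in WT_SC replicate 1 and 233 CPM in APP_NOX2 replicate 1, Cst7 was at 0.347 and 7.14 CPM, Clec7a at 0.752 and 5.75 CPM, and Itgax at 0.752 and 3.85 CPM. In the same pair Gpnmb was at 8.39 and 10.7 CPM and Axl at 59.5 and 55.1 CPM. In the marker score the pair does not meet, at -0.04 in WT_SC replicate 1 and 0.20 in APP_NOX2 replicate 1. This pair was picked after its values were seen and is given as a description.

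**Figure D4:**
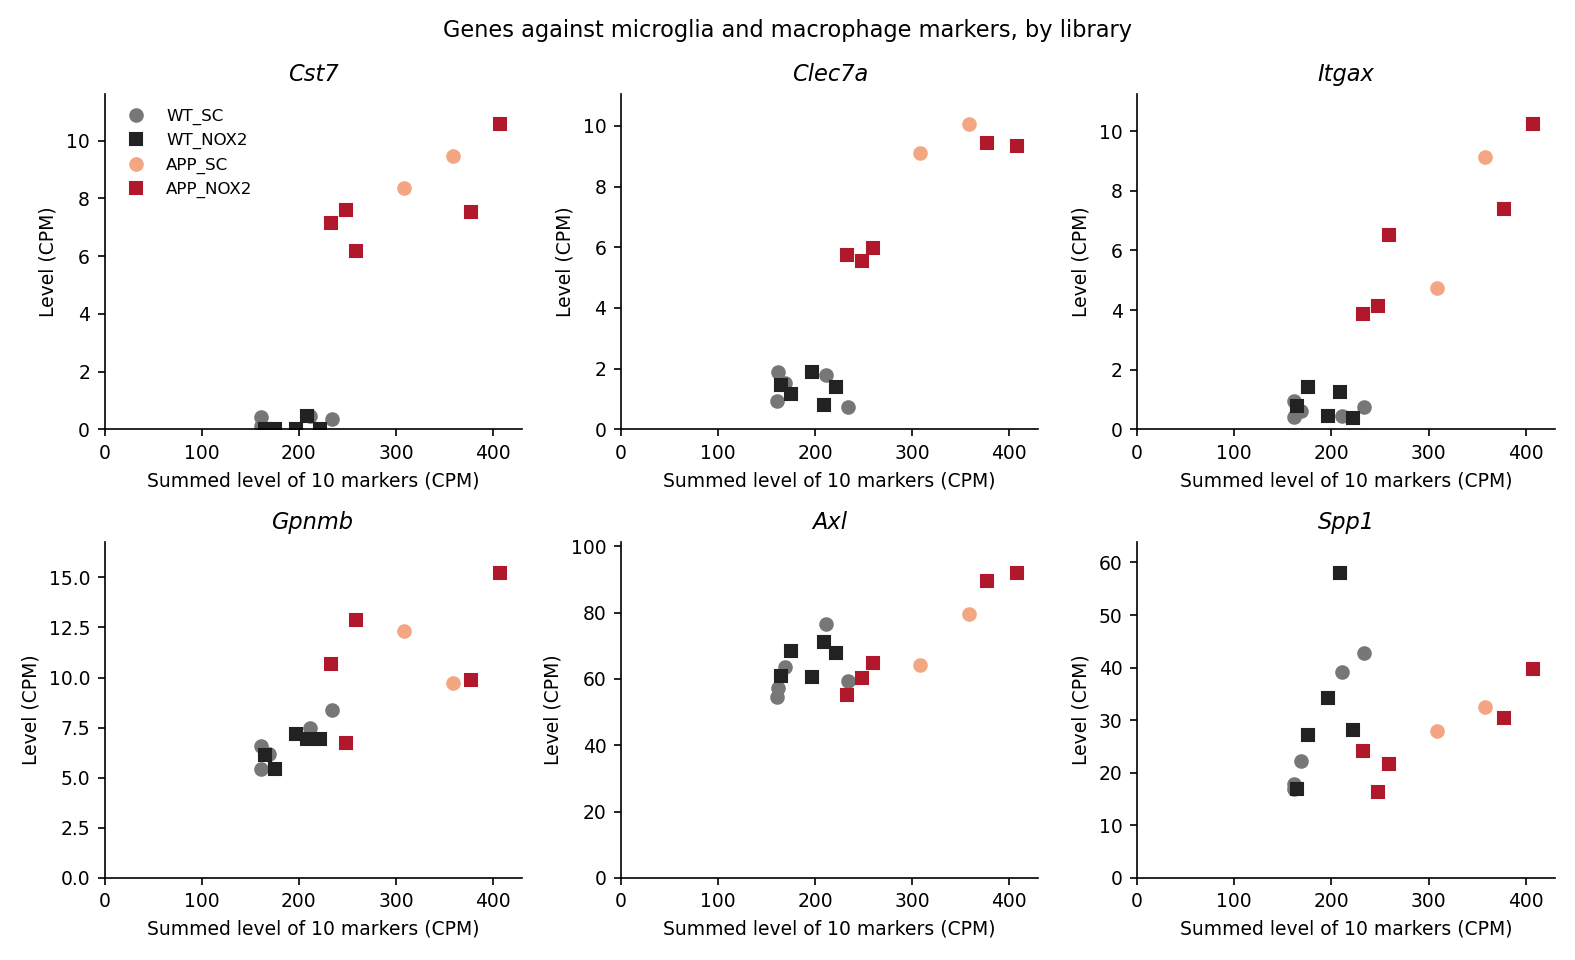
Level of 6 of the genes (vertical axis, CPM) against the summed level of 10 microglia and macrophage markers (horizontal axis, CPM); each point is 1 library. Cst7, Clec7a and Itgax lie higher in APP/PS1 also in the 1 pair of WT and APP/PS1 libraries whose marker sums meet, near 233 CPM. Axl does not, and the pair was picked after its values were seen. In the mean log2 score of the same markers the pair does not meet (-0.04 in WT, 0.20 in APP/PS1).

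The inhibitor comparison asks whether blocking NOX2 moves these genes. With edgeR, 0 of the 10 were called in APP/PS1 and 0 in WT, none of the 10 had an unadjusted p under 0.05 in either genotype, and DESeq2 called none of them. The background was the same, with 0% of genes called by edgeR in each and 338 genes in APP/PS1 and 252 in WT at an unadjusted p under 0.05. In APP/PS1 the changes ran from -0.40 ± 0.28 (SE) for Clec7a to 0.16 ± 0.54 for Lgals3, with a median of -0.11 against 0.00099 over all genes. Clec7a averaged 9.58 CPM in APP_SC and 7.21 CPM ± 2.00 (SD, n = 5) in APP_NOX2, and 2 of 5 inhibitor libraries lay within the range of the 2 control libraries. Cst7 (-0.19 ± 0.38) and Itgax (-0.10 ± 0.38) were within 1 SE of no change. With 2 APP_SC libraries the standard errors leave room for changes of either sign for each of the 10 genes.

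In WT the changes ran from -1.56 ± 0.85 (SE) for Cst7 to 0.75 ± 0.44 for Lgals3, both genes with few counts in WT, and the median was 0.06. For Cst7 this compares 16 counts in WT_SC with 5 in WT_NOX2, all 5 in 1 library. The smallest standard errors were those of Axl (0.08 ± 0.14), Igf1 (0.01 ± 0.15) and Cd9 (-0.08 ± 0.15), and Spp1 was at 0.24 ± 0.31. The interaction, the difference of the inhibitor change between genotypes, was called for 0 of the 10 genes and 0% of all genes by edgeR (158 genes at an unadjusted p under 0.05), with 0 unadjusted p-values under 0.05 among the 10 and no call by DESeq2. It ran from -0.59 ± 0.69 (Lgals3) to 1.37 ± 0.93 (Cst7). The comparisons in APP/PS1, in WT and of genotype share libraries, so their values are not independent.

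**Figure D5:**
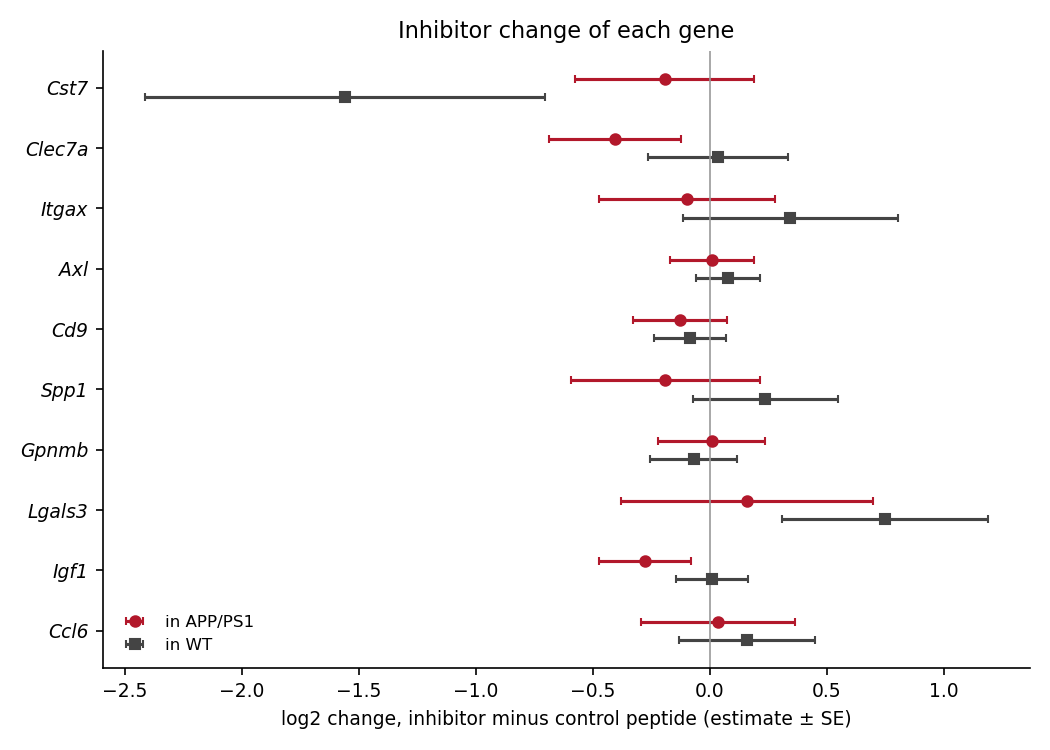
Log2 change with inhibitor (horizontal axis, inhibitor minus control peptide, estimate with SE) of each gene in APP/PS1 and in WT. No gene passed in either genotype; the widest bars belong to Cst7 in WT and Lgals3, which had few counts.

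Variation within groups was compared between the 10 genes. After the group mean was removed, the 45 pairs had Pearson correlations of log2 CPM from -0.53 to 0.74 over 17 libraries, with a median of 0.20, and 34 of the 45 were positive. The highest was between Axl and Cd9 (Pearson r = 0.74, permutation p = 0.00176, adjusted over 45 pairs 0.0792; Spearman rho = 0.68, permutation p = 0.00651, adjusted 0.200), and r was 0.71 without the 2 libraries farthest from the median of Axl. No pair passed after adjustment, and 7 had an unadjusted permutation p under 0.05. Clec7a and Itgax, which both separated the genotypes, had r = -0.23 within groups (permutation p = 0.397, adjusted 0.755; rho = -0.22, permutation p = 0.405, adjusted 0.820).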

How the data were processed

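Counts per Ensembl gene were deposited by the authors as whole numbers with a different total in each library, and they were used as deposited. The submitters' processing notes name cutadapt, STAR, HTSeq and DESeq2 and the builds GRCh37 and mm10, without roles; versions, annotation and strand setting were not given in the sources used here. Another 20 columns matched no sample and were not used. Symbols came from GENCODE M21, with 42250 of 42687 IDs matched, and positions from GRCm38. All 136 pairs of libraries differed, and within groups by 5.37 or more in chi-square per degree of freedom.

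Genes were kept with filterByExpr (18753), scaled by TMM and tested with edgeR 4.0.16 (quasi-likelihood F test, two-sided, all 17 libraries, Benjamini-Hochberg over all genes tested, threshold 0.05). An additive model gave genotype over both peptides, and group means gave the other comparisons. Log2 CPM used a prior count of 2. On simulated counts for genotype over both peptides (18753 genes), 87% of 100 genes changed by 1 on the log2 scale and 100% of those changed by 2 were recovered. The changed genes were drawn from those with a mean of 1 CPM or more, so recovery of lower genes was not tested. Alternatives were DESeq2 1.42.0, its size factors in edgeR, no filter, library sizes without Gm26917 and Gm42418, a marker covariate, and leaving out each library. Replicate numbers follow the order of the samples and pair nothing. The genes and lists were chosen with earlier results of these data known. Named were the 10 genes, the called genes of the program and homeostatic lists (up to 8 each), 3 general microglia markers by smallest p, up to 2 genes of other lists, Prnp and App. Genes of other lists were also named where they were under 3 counts on average or made up most of a list's sum. Some genes of these lists are not reported here by name.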

Additional observations from a re-analysis of the deposited data

Results flagged for a closer look

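Each of the 10 genes was looked at in the 3 groups of 5 libraries, 30 in all, for a library far from the rest by Dixon's ratio (gap over range, critical value 0.71), which chance passes in about 1 of 20 groups, or 1.5 here. It did so in 2. Cst7 stood apart in WT_NOX2 replicate 3 (ratio 1), at 0.449 CPM or 5 counts against 0 in the other 4 libraries. With 4 libraries at 0 the ratio is 1 for any other value of the fifth, so the chance rate does not apply to it. Ccl6 stood apart in WT_NOX2 replicate 2 (ratio 0.759), at 3.44 CPM against 1.17 to 1.53 CPM in the others, the library that was also highest among WT for neutrophil markers.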

How the results depend on the processing

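The 5 calls among the 10 genes for genotype over both peptides held with any 1 of the 17 libraries left out, with DESeq2, with its size factors, without the filter and with the other library sizes; with the marker covariate 4 were called, Spp1 among them and Gpnmb and Ccl6 not. The count over all genes was 182 with DESeq2 and 765 with the covariate, against 110, and 70 to 123 with a library left out (70 without APP_SC replicate 2). With control peptide 45 genes were called by DESeq2 against 10, and 4 to 17 with a library left out: 6 without WT_SC replicate 3 or APP_SC replicate 1, 17 without WT_SC replicate 4 and 4 without APP_SC replicate 2, where 1 library is assumed to vary like the other groups. With inhibitor DESeq2 called 5 of the 10 genes and 61 of all genes, against 3 and 34, and 15 to 38 of all genes were called with a library left out (21, 19 and 15 without WT_NOX2 replicates 1, 3 and 5, 15 and 17 without APP_NOX2 replicates 2 and 4). Of the 10 genes, 4 separated the genotypes without WT_NOX2 replicate 2 or APP_NOX2 replicate 3, against 3 with all libraries. Separation is easier to reach with fewer libraries, and its share over all genes was not counted in these settings. The covariate reversed Axl (-0.38), Cd9 (-0.26) and Igf1 (-0.31), none of them called; the cause was not tested.

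No called value changed sign when a library was left out. Uncalled log2 changes that crossed 0 were, for genotype over both peptides, Spp1 from -0.25 to 0.042 and Lgals3 from -0.068 to 0.18; with control peptide, Spp1 from -0.019 to 0.33; for inhibitor in APP/PS1, Itgax from -0.51 to 0.44, Axl from -0.14 to 0.17, Gpnmb from -0.15 to 0.19, Lgals3 from -0.11 to 0.44 and Ccl6 from -0.16 to 0.28; for inhibitor in WT, Clec7a from -0.16 to 0.17, Cd9 from -0.17 to 0.085, Spp1 from -0.069 to 0.45, Gpnmb from -0.14 to 0.024, Igf1 from -0.11 to 0.098 and Ccl6 from -0.26 to 0.29; and for the interaction, Itgax from -0.85 to 0.095, Axl from -0.22 to 0.094, Cd9 from -0.21 to 0.075, Gpnmb from -0.079 to 0.26 and Ccl6 from -0.31 to 0.30. No paired analysis was possible because the labels give no replicate numbers shared between groups. Counts of Lgals3 and of Cst7 in WT limit what can be said of them.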

Other observations

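By a rule set with the comparisons, the gene most like each of 3 genes was sought among 17214 genes, by the Pearson correlation of log2 CPM over 17 libraries after the group mean was removed. It was Hbb-bs, a beta-globin of red cells, for Clec7a (r = 0.88, Spearman rho = 0.92, r = 0.81 without the 2 libraries farthest from the median). For Cst7 it was Eif4e3, a cap-binding factor (r = 0.85, rho = 0.78, r = 0.69), and for Itgax Adk, adenosine kinase (r = 0.77, rho = 0.84, r = 0.79). Each is the highest of many values over few libraries and is given as a description. Cst7 had 0 to 6 counts in each of the 10 WT libraries, so its values there lie near the floor.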
